A study of Homo sapiens with 9 samples.

Results

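The EGFR family consists of 4 receptor tyrosine kinases, EGFR, ERBB2, ERBB3 and ERBB4, and of the secreted ligands that bind them. The mRNAs of the 4 receptors and of 6 ligands (AREG, EREG, HBEGF, TGFA, BTC and EGF) were examined, 10 of the 60642 gene names in the deposited tables, and were found by their names. RNA-seq libraries came from SNU-398, an established human hepatocellular carcinoma (HCC) cell line. There were 3 groups of 3 libraries each: the vector control, cells that stably overexpressed EMX1-FL and cells that stably overexpressed EMX1-X1. All 3 groups had received a lentivirus and were selected with puromycin, so the controls share the virus and the drug. EMX1 is a homeobox gene best known from the developing cerebral cortex. EMX1-FL encodes the whole homeodomain, and EMX1-X1 ends in another terminal exon and lacks part of it. The sources used here do not say whether the 3 libraries of a group came from separate cultures, so the p-values measure the spread between these libraries, which may be technical.

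Ligands of this family are made as membrane-bound precursors that metalloproteases cut from the cell surface. AREG, EREG, HBEGF, TGFA, BTC and EGF all bind EGFR, and HBEGF, EREG and BTC bind ERBB4 as well. A bound receptor pairs with itself or another family member, and the pair signals through adaptors such as GRB2 and SHC1 to the RAS-ERK cascade. ERBB2 has no known ligand and acts as a preferred partner of the others, while ERBB3 has little kinase activity of its own and binds neuregulins. In liver, EGFR takes part in regeneration and in the growth of HCC.

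The depth of a library was 21562703 to 25197970 counted read pairs. EMX1 was between 6.34 and 7.69 TPM (transcripts per 1000000 transcripts, a level corrected for gene length) in the vector libraries, between 91.6 and 168 in EMX1-FL libraries and between 99.8 and 205 in EMX1-X1 libraries, so each library matched its label as to overexpression. Counts are per gene, so the EMX1 isoforms were not told apart. By the first principal component, which held 39.6% of the variance, the libraries fell into cluster A (EMX1-X1 1, EMX1-FL 2 and 3, vector control 1 and 2) and cluster B (EMX1-X1 2 and 3, EMX1-FL 1, vector control 3). Both were defined from the data and each group has libraries in both. EMX1 itself was 0.78 higher on the log2 scale in cluster B than in cluster A, and 93.7% of genes had a lower value of this difference. It was at 168 TPM in EMX1-FL 1 against 91.6 and 103 in EMX1-FL 2 and 3, and at 205 and 195 in EMX1-X1 2 and 3 against 99.8 in EMX1-X1 1. The part of the EMX1 level in differences between the clusters was not tested. Values within them are given where they touch a member. As to cell identity, the hepatocyte transcripts TTR and AFP had 0 counts in every library, and the keratins KRT8, KRT18 and KRT19 had at most 2 counts in a group. The other epithelial markers were detected, EPCAM with 222, 315 and 303 counts and CDH1 with 145, 173 and 252 counts in the vector, EMX1-FL and EMX1-X1 groups. Against the vector control, the log2 fold changes for EMX1-FL and EMX1-X1 were 0.55 and 0.40 for EPCAM and 0.32 and 0.75 for CDH1. The smallest unadjusted p of these was 0.0352, for CDH1 with EMX1-X1 (adjusted p = 0.584, edgeR), and the groups overlapped in each. The summed level of the 5 epithelial markers was 4.41 to 6.46 CPM in vector libraries, 5.63 to 8.22 in EMX1-FL and 5.7 to 8.89 in EMX1-X1 libraries. CPM are counts per 1000000 read pairs counted in the tested genes, with the library size scaled by TMM factors. The 5 mesenchymal markers, led by VIM, summed to 1162 to 1721, 1454 to 1838 and 1271 to 1407 CPM. VIM itself had log2 fold changes of 0.077 (EMX1-FL) and -0.23 (EMX1-X1) against the vector control. FN1 was higher with both isoforms, with means of 168, 256 and 246 CPM (unadjusted p = 0.00133 and 0.00256, adjusted p = 0.216 and 0.433, edgeR). Its log2 fold changes, 0.60 and 0.55, were short of the study's call rule, p under 0.05 with 1 or more in size. ZEB1 passed this rule with EMX1-FL (log2 fold change 1.22, unadjusted p = 0.0413, adjusted p = 0.837, edgeR), though the groups overlapped. The summed level of the 7 hepatocyte markers, of which 2 were at 0 throughout, was 0.523 to 0.948 CPM in vector libraries, 1.69 to 2.68 in EMX1-FL and 1.08 to 2.06 in EMX1-X1 libraries. The 4 leukocyte and the 4 endothelial markers summed to at most 0.487 and 0.693 CPM in a library. The hepatocyte sum followed mainly ALB, which passed the call rule with both isoforms. Its log2 fold changes were 1.46 and 1.11 (unadjusted p = 0.00722 and 0.0314, adjusted p = 0.467 and 0.576, edgeR). The part of these markers in the results on the EGFR family was not tested.

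The sequences just upstream of the start sites are shown first for the receptor with the smallest p among the members and for the ligand with the highest level. Both are taken from RefSeq on GRCh38.p14, are 250 bases long, end at the base before the start site and are written 5′ to 3′ on the strand of the gene. Capitals mark GC boxes, the letters GGGCGG or their reverse complement CCGCCC, which the factor SP1 is known to bind.
EGFR, chr7:55018767-55019016, plus strand: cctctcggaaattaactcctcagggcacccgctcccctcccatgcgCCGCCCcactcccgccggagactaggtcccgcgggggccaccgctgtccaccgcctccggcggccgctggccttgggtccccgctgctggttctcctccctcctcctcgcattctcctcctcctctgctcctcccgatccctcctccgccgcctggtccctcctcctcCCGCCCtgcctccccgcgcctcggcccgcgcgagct
HBEGF, chr5:140346604-140346853, minus strand: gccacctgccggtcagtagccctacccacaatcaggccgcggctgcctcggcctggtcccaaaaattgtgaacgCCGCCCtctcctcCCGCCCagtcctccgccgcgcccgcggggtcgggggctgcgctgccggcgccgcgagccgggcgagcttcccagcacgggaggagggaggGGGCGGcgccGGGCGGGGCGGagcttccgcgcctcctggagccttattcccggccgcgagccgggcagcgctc
The EGFR window had 2 GC boxes, a GC content of 73.6% and 25 CpG dinucleotides. The HBEGF window had 5 GC boxes, 76.4% GC and 33 CpG dinucleotides. Over all 35116 windows of this length in the table the medians were 58.0% GC and 11 CpG dinucleotides, and 42.6% of windows held a GC box on either strand. The TATA box, searched as TATAAA on both strands, was in neither window shown and in 10.7% of all windows. EGFR had a further annotated start whose window held it 2 times and had 38.8% GC. Start sites of 9 of the 10 members were in the table, with 11 windows in all. The letters TAATTA, a core that many homeodomain proteins bind, were in 0 of the 11 windows, against 4.35% of all windows. With so few windows and so rare a match, this absence says little. The shorter form ATTA, which the EGFR window shown holds, was not searched. These are matches of letters in a short window and say nothing of binding elsewhere. From reporter assays and CUT&Tag, the paper reports that EMX1-FL binds the EGFR promoter. The site it mutated lies further upstream than the window shown, so the search does not bear on it.

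EGFR, the receptor that all 6 ligands share, lies on chromosome 7 of GRCh38 from 55019017 to 55211628 on the plus strand. Its level in the vector libraries was 3.97, 4.41 and 4.02 TPM. In EMX1-FL libraries it was 9.68, 10.1 and 7.82 TPM, and in EMX1-X1 libraries it was 6.87, 6.75 and 6.16 TPM. The 3 groups did not overlap: EMX1-FL libraries were highest, EMX1-X1 libraries lay between, and vector libraries were lowest. In bulk RNA, more cells that express a gene and more of its RNA per cell cannot be told apart. The group means were 4.14 ± 0.241, 9.20 ± 1.21 and 6.59 ± 0.377 TPM (SD, n = 3 each). From raw counts, EGFR was 2.08-fold higher in EMX1-FL cells than in the vector control (log2 fold change 1.06, standard error 0.182, 95% interval 0.66 to 1.45, unadjusted p = 8.77e-05 and adjusted p = 0.0627 in edgeR's quasi-likelihood F test with Benjamini-Hochberg adjustment over 18574 genes). At the threshold for differentially expressed genes, an unadjusted p under 0.05 and a log2 fold change of 1 or more in size, EGFR rose in EMX1-FL cells, whereas it missed an adjusted p under 0.05. With the cluster as a covariate the fold was the same and the adjusted p was 0.00209 (edgeR). The clusters were taken from these same libraries, so this p may be too small and is no independent support. With this covariate 111 genes passed an adjusted p under 0.05 with the fold threshold, against 13 without it. The log2 fold change of EGFR was close to the fold threshold, and leaving out vector control 1 or EMX1-FL 2 gave 0.98 or 0.95 and ended the call.

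EGFR had a log2 fold change of 0.57 in EMX1-X1 cells (95% interval 0.17 to 0.96, unadjusted p = 0.00859, adjusted p = 0.526, edgeR), short of the fold threshold. EMX1-FL exceeded EMX1-X1 by 0.49 on this scale (95% interval 0.098 to 0.88, unadjusted p = 0.0186, adjusted p = 0.611, edgeR). In each of the 3 comparisons a two-sided exact permutation test gave p = 0.1, the smallest that 3 libraries against 3 allow. In cluster A the mean log2 CPM of EGFR was 1.02 above the vector control in EMX1-FL and 0.66 in EMX1-X1. In cluster B, with 1 vector and 1 EMX1-FL library, it was 1.09 and 0.47. EGFR itself differed little between the clusters, by 0.056 on the log2 scale (cluster B minus cluster A), and 52.9% of all genes had a lower value of this difference.

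**Figure D1:**
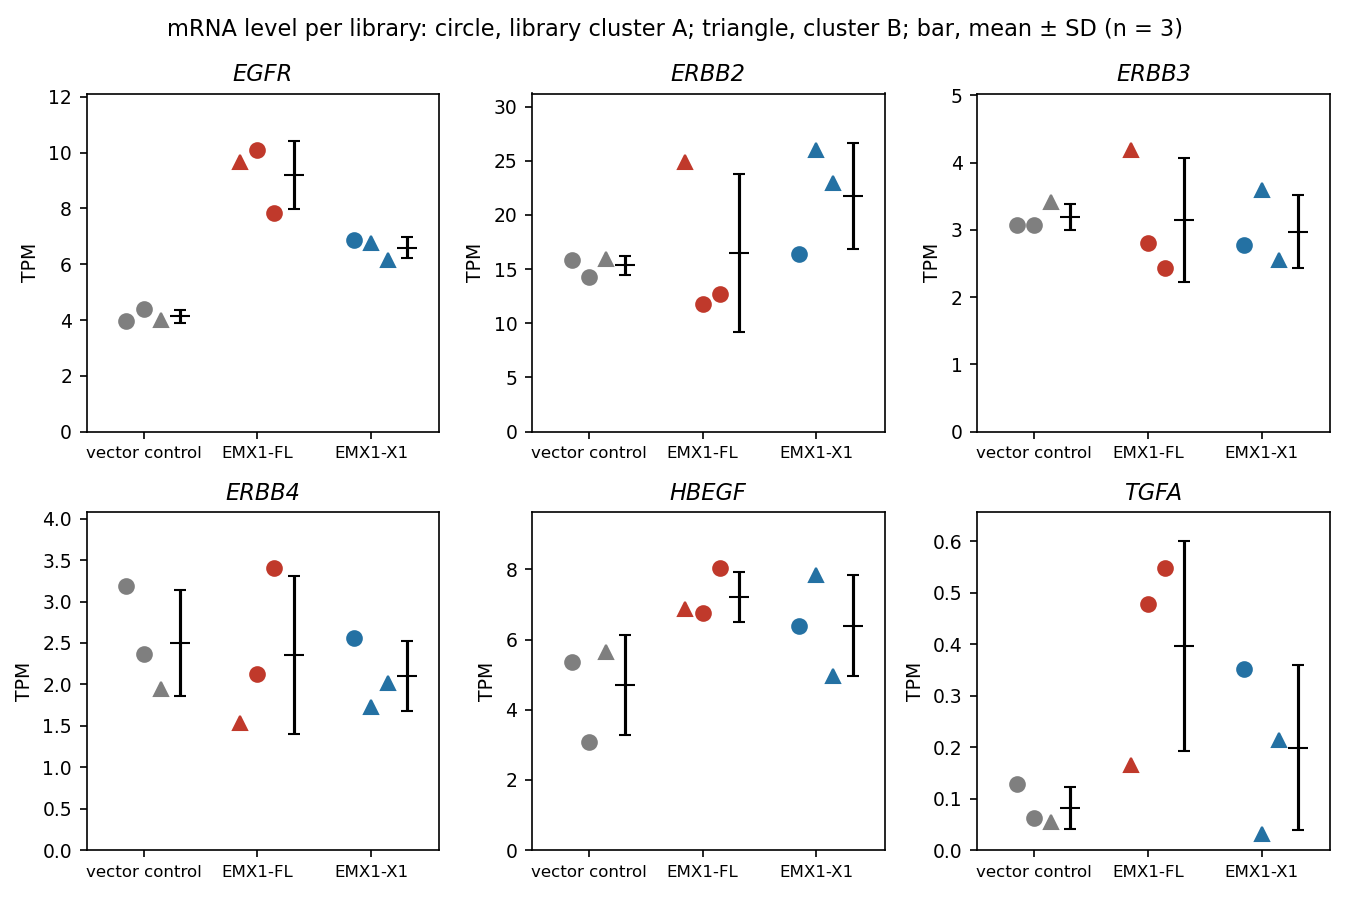
Level in TPM (vertical axis, from 0) of the 4 receptors and the 2 ligands that passed the filter on low counts, by group; each point is a library, a circle in cluster A and a triangle in cluster B, and the bar beside the points is the mean ± SD (n = 3). The EGFR points form 3 separate groups, from 3.97 to 10.1 TPM, whereas in EMX1-FL cells the ERBB2 points split by cluster, with 24.9 TPM in one library and 11.8 and 12.7 in the others.

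A non-coding gene on the opposite strand, EGFR-AS1, covers 1.49% of the exon bases of EGFR, and the counting used no strand, so reads there cannot be assigned to one of the genes. EGFR-AS1 had between 0 and 6 counts in a library, with group totals of 4, 5 and 7 counts in the vector, EMX1-FL and EMX1-X1 groups. EGFR had 1043, 2100 and 1597 counts in the same groups.

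ERBB2, the ligand-less partner receptor, was the most abundant member in every library. Its gene is on chromosome 17 from 39687914 to 39730426, plus strand, with 6.93% of its exon bases also annotated to PGAP3 and MIEN1. The level was 15.8, 14.3 and 15.9 TPM in vector libraries, 24.9, 11.8 and 12.7 in EMX1-FL libraries, and 16.4, 26.0 and 22.9 in EMX1-X1 libraries. The EMX1-FL libraries lay on both sides of the vector libraries, and EMX1-X1 libraries lay above them in TPM but not in CPM, where EMX1-X1 1 (44.8) was below vector control 3 (50.4). In counts, the log2 fold change was 0.0086 for EMX1-FL (95% interval -0.62 to 0.64) and 0.40 for EMX1-X1 (95% interval -0.23 to 1.03), both against the vector control, and neither was past the spread between libraries (unadjusted p = 0.977 and 0.192, adjusted p = 1 and 0.709, edgeR). The interval for EMX1-FL left room for a change in either direction, and its sign turned under several alternatives. Between EMX1-FL and EMX1-X1 the log2 difference of ERBB2 was -0.39 (95% interval -1.02 to 0.24, adjusted p = 0.631, edgeR), and without EMX1-FL 1 it was -0.83 (adjusted p = 0.0461, edgeR). That fit keeps only the EMX1-FL libraries of cluster A. In it 490 genes passed an adjusted p under 0.05 with the fold threshold, against 0 with all libraries, so the change was not particular to ERBB2. ERBB2 moved with the clusters of libraries: it was 0.64 higher on the log2 scale in cluster B than in cluster A, and 88.9% of genes had a lower value of this difference. Within cluster A the EMX1-FL libraries were 0.36 below the vector libraries in mean log2 CPM (a difference of -0.36), and within cluster B the single EMX1-FL library was 0.48 above the single vector library.

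ERBB3, the receptor with little kinase activity, lies on chromosome 12 from 56076799 to 56103505, plus strand, and shares 0.343% of its exon bases with AC034102.2. It was at 3.08, 3.08 and 3.42 TPM in vector libraries, 4.19, 2.81 and 2.44 in EMX1-FL and 2.78, 3.59 and 2.55 in EMX1-X1 libraries. The groups overlapped. The log2 fold change was -0.12 for EMX1-FL (95% interval -0.67 to 0.43) and -0.21 for EMX1-X1 (95% interval -0.76 to 0.34), and neither was larger than the spread between libraries (adjusted p = 0.997 and 0.813, edgeR).

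ERBB4, which binds neuregulins and some of the EGFR ligands, lies on chromosome 2 from 211375717 to 212538841 on the minus strand and shares no exon bases with another gene. It was at 3.19, 2.37 and 1.94 TPM in vector libraries, 1.54, 2.12 and 3.40 in EMX1-FL and 2.56, 1.73 and 2.02 in EMX1-X1 libraries. Again the groups overlapped, and the EMX1-FL group held both the lowest and the highest of the 9 values. The log2 fold change was -0.18 (95% interval -0.80 to 0.44) for EMX1-FL and -0.34 (95% interval -0.96 to 0.28) for EMX1-X1 (adjusted p = 0.997 and 0.733, edgeR). ERBB4 went the other way from ERBB2 between the clusters, with a log2 difference of -0.52 in cluster B against cluster A. The GC content of the annotated transcripts was 40.2% for ERBB4, 51.2% for EGFR, 52.0% for ERBB3 and 59.5% for ERBB2. The part of GC content in these differences was not tested.

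TPM allows the receptors to be ordered within a library, with the limit that the authors' lengths are those of all annotated exons merged (12525 bases for EGFR). In the vector control the order was ERBB2, EGFR, ERBB3 and ERBB4, and only ERBB3 and ERBB4 overlapped. This order of means was kept in both overexpression groups, where ERBB3 and ERBB4 overlapped again and EGFR was above both in every library. The receptor mRNA was composed of 15.3, 18.2 and 15.9% EGFR in the vector libraries, 24.0, 37.6 and 29.7% in the EMX1-FL libraries and 24.0, 17.7 and 18.3% in the EMX1-X1 libraries. EMX1-FL libraries were thus above all vector libraries, while EMX1-X1 libraries reached from within the vector range to that of EMX1-FL 1. The mean share was 14 percentage points higher in EMX1-FL than in vector libraries (30.5 ± 6.83% against 16.5 ± 1.57%, SD, n = 3 each, exact permutation p = 0.1, two-sided, the lowest possible). For EMX1-X1 (20.0 ± 3.49%, n = 3) the difference from the vector control was 3.55 points (exact permutation p = 0.2), and between EMX1-FL and EMX1-X1 it was 10.4 points (exact permutation p = 0.2). ERBB3 took a smaller share in every overexpression library than in any vector library, 12.7 ± 0.851% in vector, 10.0 ± 0.672% in EMX1-FL and 8.91 ± 1.16% in EMX1-X1 libraries (n = 3 each, exact permutation p = 0.1 for both). Shares of one sum are not independent of each other, and the summed receptor level was 25.2 ± 0.931, 31.2 ± 7.92 and 33.4 ± 4.76 TPM in the 3 groups. The ratio of EGFR to ERBB2 was 0.251, 0.308 and 0.253 in vector libraries, 0.389, 0.854 and 0.618 in EMX1-FL and 0.419, 0.259 and 0.269 in EMX1-X1 libraries, so the highest 2 ratios were in the EMX1-FL libraries of cluster A, where ERBB2 was lowest.

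**Figure D2:**
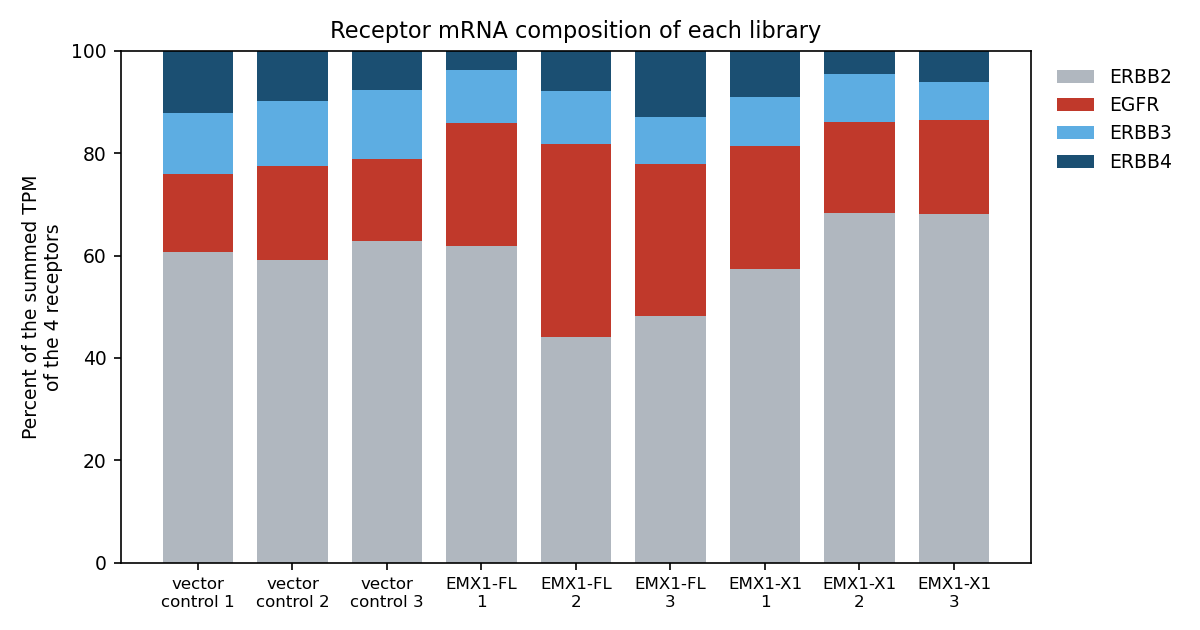
Share of each receptor in the summed TPM of the 4 receptors, in percent (vertical axis), as stacked bars for the 9 libraries. The EGFR share was 15.3 to 18.2% in vector libraries and 24.0 to 37.6% in EMX1-FL libraries.

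Among the ligands, HBEGF, a heparin-binding growth factor, was the most abundant of the 6 and made up between 89.7 and 99.6% of their summed TPM. Its gene is on chromosome 5 from 140332843 to 140346603, minus strand. The level was 5.37, 3.07 and 5.66 TPM in vector libraries, 6.86, 6.76 and 8.03 in EMX1-FL libraries and 6.40, 7.84 and 4.96 in EMX1-X1 libraries. All EMX1-FL libraries were above all vector libraries, and the EMX1-X1 libraries overlapped both groups. The log2 fold change in counts was 0.51 for EMX1-FL (95% interval -0.10 to 1.12, unadjusted p = 0.0941, adjusted p = 0.969, edgeR, two-sided exact permutation p = 0.1) and 0.33 for EMX1-X1 (95% interval -0.28 to 0.94, adjusted p = 0.736, edgeR). Without vector control 2, the lowest library, these values were 0.25 and 0.075. Within cluster A, with 2 libraries of each group, the mean log2 CPM of HBEGF was 0.78 higher in EMX1-FL than in vector libraries. Within cluster B the single EMX1-FL library was 0.10 above the single vector library. In the EMX1-FL and EMX1-X1 groups the TPM of HBEGF and EGFR overlapped, as they did in the vector control.

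TGFA, transforming growth factor alpha, was detected in every library but at a few read pairs. It lies on chromosome 2 from 70447284 to 70554193, minus strand. It had 4, 2 and 2 counts in vector libraries, 5, 15 and 15 in EMX1-FL and 11, 1 and 7 in EMX1-X1 libraries, at most 0.547 TPM. The EMX1-FL libraries were just above the vector libraries in EMX1-FL 1 and clearly above in the other two, and the EMX1-X1 libraries reached below and above the vector range. The log2 fold change for EMX1-FL was 2.13 (standard error 0.816, 95% interval 0.35 to 3.91, unadjusted p = 0.023, adjusted p = 0.727, edgeR), so TGFA rose at the unadjusted threshold. TGFA passed the filter only through overexpression libraries, so its presence among the tested genes depends on the groups where it was high. As a ratio of the 35 counts in EMX1-FL to the 8 in the vector control, scaled to library size, it was 4.54 (95% exact interval 2.07 to 11.3, which covers counting error only). The call was lost without vector control 2 or 3 or EMX1-FL 2 or 3, with log2 fold changes of 1.87 to 1.97 (adjusted p = 1 in each, edgeR). For EMX1-X1 the log2 fold change was 1.16 (95% interval -0.71 to 3.03, adjusted p = 0.713, edgeR). TGFA was also lower in cluster B than in cluster A by a log2 difference of -1.33, with 0.845% of genes lower still, and the EMX1-FL libraries with 15 counts were both in cluster A.

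The other 4 ligands were at or near 0 and did not pass the filter on low counts. EREG, epiregulin (chromosome 4, 74365145 to 74388749), had 2, 5 and 11 counts in vector libraries, 1, 1 and 0 in EMX1-FL and 5, 0 and 1 in EMX1-X1 libraries. All EMX1-FL libraries were below all vector libraries, whereas the EMX1-X1 libraries overlapped them. The ratio of the 2 counts in EMX1-FL to the 18 in the vector control was 0.115 after scaling (95% exact interval 0.013 to 0.482, counting error only), and for the 6 counts in EMX1-X1 it was 0.323 (0.105 to 0.849). Fitted without the filter, EREG differed by -2.92 on the log2 scale for EMX1-FL (unadjusted p = 0.0496, adjusted p = 0.888, edgeR), at the limit of the unadjusted threshold. AREG, amphiregulin (chromosome 4, 74445136 to 74455005), had 4 counts in vector control 3 and 2 in EMX1-X1 1, and none in the others. BTC, betacellulin (chromosome 4, 74744759 to 74794523), had 1 count each in EMX1-FL 2 and EMX1-X1 1. EGF itself (chromosome 4, 109912883 to 110013766) had 0 counts in all 9 libraries, and a count of 0 allows up to 3 counts, which is 0.119 to 0.139 CPM at these depths. The levels of AREG, BTC and EGF could not be compared between groups at this depth.

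By the unadjusted threshold, 2 of the 6 members tested, EGFR and TGFA, were called in EMX1-FL cells, both higher, against 2.42% of all genes tested. When the adjusted p had to be under 0.05, 0 of the 6 were called, against 0.07% of all genes, while DESeq2 gave EGFR an adjusted p of 3.02e-05 and called it. Groups did not overlap for 3 of the 6 members (EGFR, HBEGF and TGFA), against 10.5% of all genes. In EMX1-X1 cells 0 of the 6 were called by either rule in edgeR or DESeq2 (1 at an unadjusted p under 0.05, EGFR, where 8.11% of all genes passed), against 2.5% of all genes by the unadjusted rule and 0.00538% by the adjusted one. Here 1 of the 6, EGFR, did not overlap between the groups, against 14.7% of all genes. Between EMX1-FL and EMX1-X1 cells 0 of the 6 were called (1 at an unadjusted p under 0.05, EGFR, where 7.63% of all genes passed), against 1.42% and 0% of all genes by the 2 rules, and 1 of 6 did not overlap, against 8.38%. The members tested are those that passed the filter and are few. TGFA passed it only through EMX1-FL 2 and 3 (0.632 and 0.693 CPM) and EMX1-X1 1 (0.458 CPM), against at most 0.171 CPM in vector libraries. The counts of members that include TGFA are thus biased towards higher values in EMX1-FL cells. The paper picked EGFR partly from genes differentially expressed in EMX1-FL SNU-398 cells, so the call of EGFR here is no independent support. No conclusion is drawn from these counts. Against the vector control, the 6 had a median log2 fold change of 0.26 (EMX1-FL) and 0.37 (EMX1-X1 cells), while all genes had one of 0.045 and 0.0098. These medians include EGFR and TGFA too, so no conclusion is drawn from them either. The 4 receptors alone had medians of -0.055 (EMX1-FL) and 0.094 (EMX1-X1). The comparisons of EMX1-FL and EMX1-X1 with the vector control share the 3 vector libraries.

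**Figure D3:**
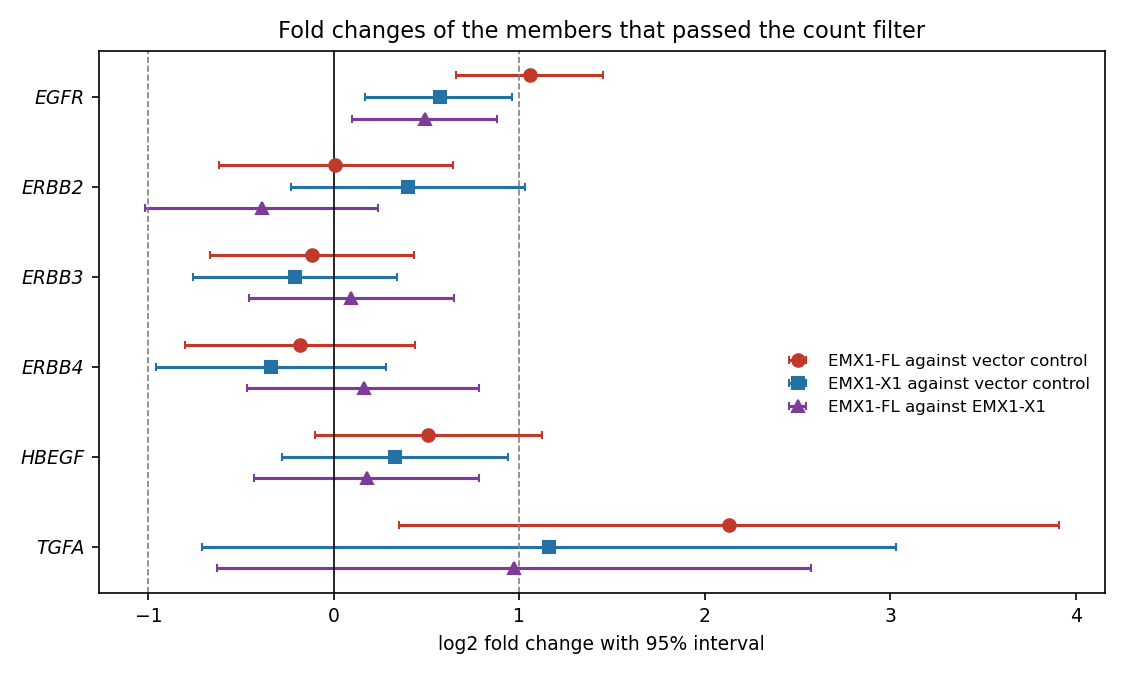
Log2 fold change from counts (horizontal axis) with its 95% interval for the 6 members tested, in the 3 comparisons; dashed lines mark the fold threshold at -1 and 1. The EGFR intervals lie above 0 in all 3 comparisons, and that of TGFA, with few counts, is the widest, from 0.35 to 3.91 for EMX1-FL.

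Other genes of the pathway were described with 6 lists of 73 genes, of which 68 were tested. None of the 68 passed the unadjusted or the adjusted threshold in edgeR or DESeq2 in any of the 3 comparisons, against the shares of all genes given for the members. At an unadjusted p under 0.05 without a fold threshold there were 6 genes for EMX1-FL and 6 for EMX1-X1 against the vector control, and 10 between EMX1-FL and EMX1-X1, while 5.8%, 8.11% and 7.63% of all genes tested passed that cut in these comparisons. The median log2 fold change over the 68 was -0.001, -0.0075 and 0.0068 in these comparisons. The genes named from these lists were chosen after their values were seen.

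The other ERBB ligands are the neuregulins, which bind ERBB3 and ERBB4, and EPGN, which binds EGFR. EPGN had 0 counts in every library, and NRG1 and NRG3 had between 0 and 9 counts in a library. NRG2 was by contrast at 17.8, 14.9 and 15.8 TPM in vector libraries, 19.1, 9.08 and 12.1 in EMX1-FL and 14.1, 28.8 and 24.8 in EMX1-X1 libraries. NRG2 mRNA was thus above HBEGF in every library, and the groups overlapped. Its log2 fold change was -0.36 (95% interval -1.03 to 0.31) for EMX1-FL and 0.38 (95% interval -0.28 to 1.04) for EMX1-X1.

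The ligand shedding list holds 9 genes, ADAM metalloproteases, rhomboid proteins and the inhibitor TIMP3, and 6 of the 9 had a positive log2 fold change for EMX1-FL and 5 of 9 for EMX1-X1. ADAM17, the main protease for HBEGF, TGFA, AREG and EREG, was at 29.6 ± 4.98, 31.2 ± 8.76 and 29.2 ± 2.83 TPM (SD, n = 3 each) in the vector, EMX1-FL and EMX1-X1 groups. RHBDF1, a rhomboid-like partner of ADAM17, was at 19.8, 16.2 and 16.8 TPM in vector libraries, 24.5, 15.4 and 23.5 in EMX1-FL and 22.0, 42.3 and 36.5 in EMX1-X1 libraries. For RHBDF1 the EMX1-X1 libraries were all above the vector libraries, with a log2 fold change of 0.83 (95% interval 0.27 to 1.39, unadjusted p = 0.00723, adjusted p = 0.496, edgeR).

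Of the receptor inhibition and turnover list, 15 of 16 genes were tested, with medians of 0.01 in EMX1-FL and -0.13 in EMX1-X1. ERRFI1, also called MIG6, binds the EGFR kinase domain and inhibits it. It was at 216, 232 and 214 TPM in vector libraries, 383, 417 and 347 in EMX1-FL and 418, 336 and 330 in EMX1-X1 libraries. Both overexpression groups were above all vector libraries, with log2 fold changes of 0.70 (95% interval 0.35 to 1.04, unadjusted p = 0.000915, adjusted p = 0.189) and 0.61 (95% interval 0.26 to 0.95, unadjusted p = 0.00247, adjusted p = 0.433) in edgeR. The 14 tested adaptors had medians of 0.012 and 0.0015, and the 10 genes of the RAS-ERK cascade had medians of -0.07 and 0.057.

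The ERK feedback and output list has 18 genes, feedback regulators and transcripts linked to ERK activity, and 5 of the 18 had an unadjusted p under 0.05 in EMX1-FL cells (5.8% of all genes), 3 in EMX1-X1 cells (8.11%) and 2 between EMX1-FL and EMX1-X1 (7.63%). In EMX1-FL cells, PHLDA1 and IER3 were higher, with log2 fold changes of 0.73 and 0.63, and FOS, SPRY2 and EGR1 were lower, with -0.83, -0.53 and -0.46 (adjusted p between 0.163 and 0.817, edgeR). FOS, an immediate early gene, was at 14.2, 14.3 and 14 TPM in vector libraries, 8.07, 9.04 and 8.44 in EMX1-FL and 10.2, 11.9 and 10.5 in EMX1-X1 libraries, so the 3 groups did not overlap. SPRY2, a feedback inhibitor of the cascade, was at 216, 234 and 240 TPM in vector libraries, 189, 177 and 148 in EMX1-FL and 190, 168 and 175 in EMX1-X1 libraries, below all vector libraries in both. DUSP4, a phosphatase that inactivates ERK, had its larger value in EMX1-X1 cells: 3.52, 3.79 and 3.97 TPM in vector libraries, 5.19, 3.94 and 5.52 in EMX1-FL and 6, 7.62 and 8.53 in EMX1-X1 libraries. DUSP4 had log2 fold changes of 0.27 with EMX1-FL and 0.87 with EMX1-X1 (adjusted p = 0.997 and 0.397, edgeR).

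**Figure D4:**
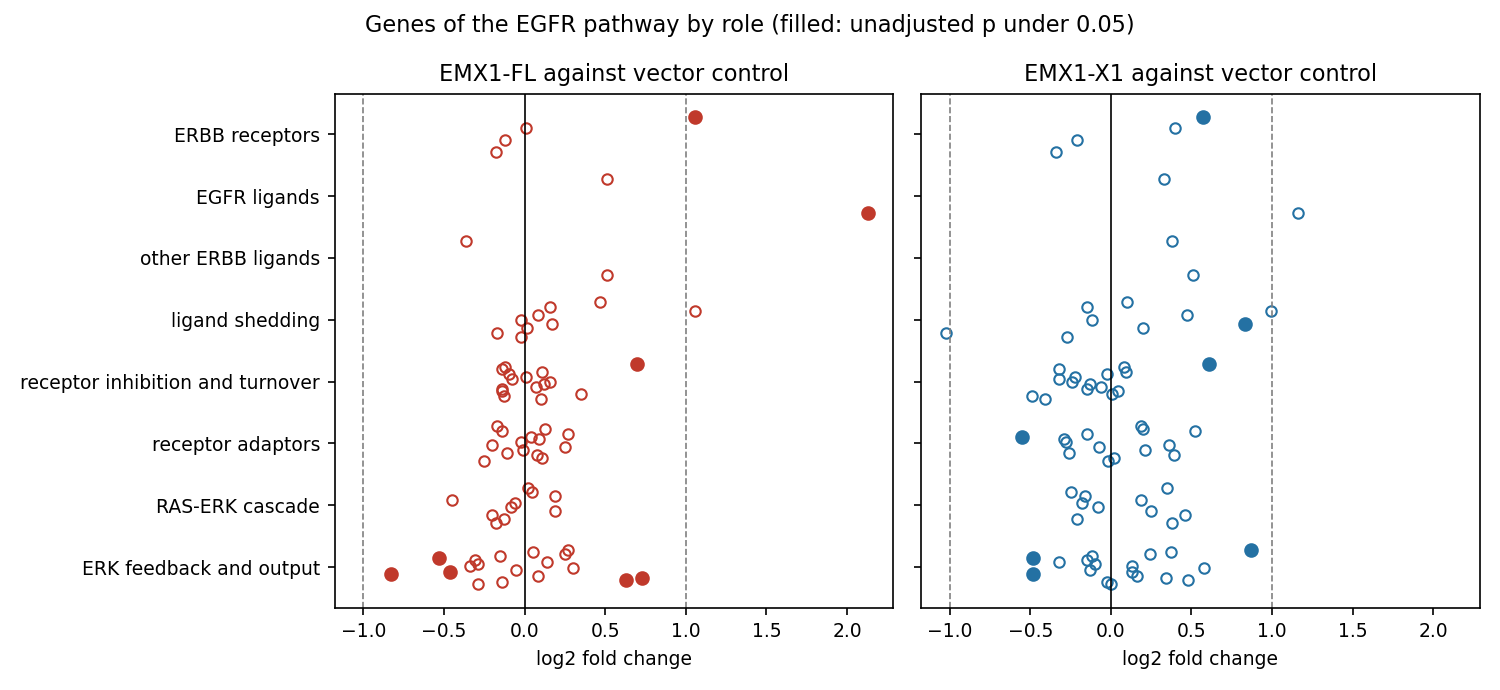
Log2 fold change against the vector control (horizontal axis) of every tested member and pathway gene, 1 circle a gene, in rows by role, for EMX1-FL (left) and EMX1-X1 (right); filled circles have an unadjusted p under 0.05 and dashed lines mark the fold threshold. Filled circles of the ERK feedback and output row stand on both sides of 0, from -0.83 to 0.73 for EMX1-FL.

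The 5 genes whose log2 CPM followed EGFR most closely over the 9 libraries, of 15322 genes with a mean of at least 1 CPM, were MMP1 (Pearson r = 0.975, Spearman rho = 0.933), MYO10 (0.968 and 0.95), PRSS23 (0.965 and 0.917), SNX9 (0.96 and 0.933) and SERPINI1 (0.959 and 0.983). The libraries fall into the groups of the study, so these correlations are a description of a shared pattern and were not tested. MMP1, an interstitial collagenase, was at 13.6 ± 0.399 TPM in the vector control, 44.5 ± 6.43 for EMX1-FL and 23.3 ± 1.93 for EMX1-X1 (SD, n = 3 each), and was chosen for its likeness to EGFR.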

How the data were processed

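RNA-seq of 9 SNU-398 libraries was analysed in the groups that the labels give. The deposited files hold unnormalized counts of read pairs for each gene name and TPM on a log2(TPM + 1) scale, which recomputation from the counts and listed lengths matched within 4.98e-06. Per the file headers, the counts were made with featureCounts 2.0.1 on exons of Ensembl release 99 (GRCh38), with no strand setting. The submitters' processing notes name bcl2fastq 2.1.7, fastp, STAR, featureCounts 2.0.6 and hg38, and the methods of the paper name RSEM. By default featureCounts leaves out read pairs that overlap several genes. TPM were put back on the linear scale for levels.

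Counts of all 9 libraries were fitted in edgeR 4.0.16 (R 4.3.3) with TMM factors and the group as the only term, over the 18574 genes that passed filterByExpr, and tested with the quasi-likelihood F test and Benjamini-Hochberg adjustment over all of them. The call rule, p under 0.05 with a log2 fold change of 1 or more in size, is the study's. Single values and shares were compared with two-sided exact permutation tests. Intervals of ratios of low counts are exact and cover counting error only. Depth was 21562703 to 25197970 counts per library. The model was also run on simulated data, whose outcome is not given here, and no result rests on that run. No 2 libraries of a group agreed within sampling noise. Positions are from the count table, GC content from GENCODE release 29 transcripts, and upstream sequences from RefSeq (GRCh38.p14). Python 3.11.15, pandas 2.3.3 and matplotlib 3.10.9 made the tables and plots.

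The members and gene lists were chosen with earlier results of these data known. Named genes are the 10 members, EMX1, pathway genes past the call rule, genes whose exons overlap a member, and the 5 genes that correlate best with EGFR (mean of at least 1 CPM), and other pathway genes are marked as chosen after their values were seen. The cell type markers are from 5 lists (hepatocyte, mesenchymal, epithelial, leukocyte, endothelial), of which the markers named singly in the text were picked after their values were seen. Alternatives were DESeq2 1.42.0, limma 3.58.1 on log2 TPM with a pseudocount of 1 or 0.1, scaling by RLE, by the upper quartile or by library size, no filter, at least 10 counts in every library, the 6 libraries compared, a replicate block, the cluster as a covariate, CPM shares and each library left out.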

Additional observations from a re-analysis of the deposited data

Results flagged for a closer look

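EGFR was flagged in the direct comparison of the 2 overexpression groups, where its unadjusted p was under 0.05. Such a result was common: 7.63% of all genes tested passed that cut in this comparison, and EGFR ranked 459 of 18574 by p. Groups did not overlap for 8.38% of genes, and 0% passed the adjusted p with the fold threshold. The log2 difference was 0.49 (95% interval 0.098 to 0.88), with every EMX1-FL library above every EMX1-X1 library. The unadjusted p was 0.0186 and the adjusted p 0.611 in edgeR's quasi-likelihood F test, and the adjusted p was between 0.105 and 0.989 over the 17 alternatives, so it failed the correction for all genes in each of them. The direction was the same in all 17, with values from 0.40 to 0.61.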

How the results depend on the processing

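The log2 fold change of EGFR in EMX1-FL cells was positive under all 17 alternatives (main value 1.06) and called in 14. It fell short with limma on log2(TPM + 1), where it was 0.98, and the leave-one-out range was 0.95 to 1.18, short without vector control 1 or EMX1-FL 2. Its adjusted p ranged from 3.02e-05 to 0.378 and was under 0.05 in 4 of 17: DESeq2, the cluster as a covariate, no filter, and without EMX1-FL 1. The cluster label came from these same data, so that fit is no independent support. The number of members called there, 2, became 0 with limma on log2(TPM + 1) or the adjusted p, 1 with at least 10 counts or with the 6 libraries compared, 0 to 2 with a library left out, and 3 with no filter, where EREG joined. With at least 10 counts or with the 6 libraries compared, TGFA did not pass the filter. TGFA under limma on log2(TPM + 1) was at 0.36. EGFR in the other comparisons, its share of receptor TPM and EMX1 kept their direction and side throughout.

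The sign of ERBB2 in EMX1-FL cells turned from 0.0086 to -0.01 with RLE factors and with DESeq2, -0.0031 with no filter, -0.00039 with at least 10 counts, -0.00022 with the 6 libraries, -0.025 with the replicate block and -0.074 with the cluster as a covariate, and ranged from -0.44 (without EMX1-FL 1) to 0.18 with a library left out. Leaving a library out, ERBB3 in EMX1-FL cells ranged from -0.40 to 0.052 and ERBB4 from -0.51 to 0.032. Between EMX1-FL and EMX1-X1, ERBB2 ranged from -0.83 to -0.22 (main -0.39), ERBB3 from -0.17 to 0.26, and ERBB4 from -0.18 to 0.38, with -0.039 with the cluster. No call rests on these signs. HBEGF ranged from 0.25 to 0.72 in EMX1-FL and from 0.075 to 0.53 in EMX1-X1 cells, lowest without vector control 2. Called pathway genes ranged from 0 to 1 in EMX1-X1 cells (RHBDF1, without EMX1-X1 1) and from 0 to 3 between EMX1-FL and EMX1-X1 (NRG2, SHC2 and MAP2K2, without EMX1-FL 1).

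Over all genes, the calls for EMX1-FL, EMX1-X1 and their difference were 450, 464 and 263. They were 142, 177 and 107 with limma on log2(TPM + 1), 947, 962 and 686 with no filter, and 217, 214 and 121 with at least 10 counts. Without EMX1-FL 1 there were 676 for EMX1-FL and 1108 for the difference, without EMX1-X1 1 906 for EMX1-X1 and 759 for the difference, and without EMX1-X1 2 or 3 the difference gave 162 or 141. At an adjusted p under 0.05 DESeq2 called 125, 48 and 1 genes, and edgeR 13, 1 and 0. Libraries with the same replicate number were not more alike than others (mean correlation of deviations -0.126 against 0.0596, and 0 of 9 most alike to their own number). This check showed no pairing by number, but with few pairs and the split into clusters it cannot exclude a weaker one. With the replicate block 385, 407 and 208 genes were called, EGFR in EMX1-FL cells was at 1.05 and no member's call was lost. The cause of the lost or turned values was not tested. The low counts of TGFA, EREG, AREG, BTC and EGF limit what can be said of them.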
